A study of Mus musculus with 15 samples.

Results

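The genes of cholesterol and fatty acid synthesis described here are 29 genes, found as the rows of the count table whose gene identifier maps to their symbols, among 39827 genes read. The rule names the genes and uses no measured value, although the list was drawn up with earlier results of these data known, and all 29 passed the filter on low counts that kept 15948 genes. By role they fall into 7 genes of the mevalonate pathway, 11 genes from squalene to cholesterol, 3 genes of sterol regulation and transfer, 3 genes of fatty acid synthesis with its regulator, and 5 genes of fatty acid elongation and desaturation.

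RNA-seq was done on 15 libraries of leukemic T cells from mouse spleen, 3 in each of 5 groups. In all groups, marrow progenitors sorted as GFP+, lineage-, cKit+ and Sca1+ had been transduced with deltaE-NOTCH1, a form of NOTCH1 that is active without its ligand, and had grown in lethally irradiated C57BL/6J hosts. 3 groups were BCAT1 WT, namely WT0 given PBS, WT0 given the BCAT1 inhibitor ERG-245 in 3 intraperitoneal doses of 30 mg per kg at intervals of 8 h, and WT6. The other groups were BCAT1 knock-out, KO7 and KO3, and the labels give PBS as treatment for WT6, KO7 and KO3 as well. The number in a group's name is that of the labels, and ages are not given. The alignment names of the 3 WT0 vehicle libraries contain DMSO where the labels say PBS. The labels do not say whether the 3 libraries of a group came from separate mice, so the p-values rest on a spread between libraries that may be technical. The groups also differed in their most frequent T cell receptor beta V segment, with Trbv17 leading in the PBS libraries of WT0 and Trbv16 in the ERG-245 libraries, Trbv19 in WT6, and for the knock-outs Trbv5 (KO7) and Trbv15 (KO3). Treatment or genotype and the individual leukemia can therefore not be told apart.

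Cells make cholesterol from acetyl-CoA by way of mevalonate, farnesyl diphosphate and squalene, and make fatty acids from the same precursor by way of malonyl-CoA. The transcription factor SREBP2, encoded by Srebf2, drives mainly the sterol genes, and SREBP1, encoded by Srebf1, drives mainly the fatty acid genes. When sterols are plentiful, INSIG proteins hold the SREBPs in the endoplasmic reticulum, while oxysterols activate the LXR receptors, which induce sterol export genes such as Abca1 and Abcg1. Growing lymphocytes are known to raise both pathways for membrane synthesis. BCAT1 is the cytosolic enzyme that moves amino groups between branched-chain amino acids and 2-oxoglutarate.

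Promoter sequences of 4 genes are shown as examples of the CCAAT box in this pathway, since SREBPs are known to act on such promoters together with NF-Y, which binds CCAAT boxes. Sequences are from RefSeq, build GRCm38.p6, read 5′ to 3′ on the gene's strand. Hmgcs1 lies at chr13:119690201-119690350 on the plus strand, and Fasn at chr11:120824548-120824697 on the minus strand. The shorter stretches are chr13:8885549-8885577 on the plus strand for Idi1 and chr5:4104710-4104738 on the minus strand for Cyp51. Annotated GENCODE exons overlap these shorter stretches, 2 at Idi1 and 1 at Cyp51, and 0 overlap those of Hmgcs1 and Fasn. Capitals mark CCAAT or its reverse complement ATTGG, and in Hmgcs1 also the first run in capitals, a match to the sterol regulatory element searched as TCACNCCAC.
Hmgcs1: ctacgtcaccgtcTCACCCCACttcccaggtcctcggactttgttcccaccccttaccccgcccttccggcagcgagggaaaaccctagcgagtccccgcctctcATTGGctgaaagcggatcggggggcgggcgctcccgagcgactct
Fasn: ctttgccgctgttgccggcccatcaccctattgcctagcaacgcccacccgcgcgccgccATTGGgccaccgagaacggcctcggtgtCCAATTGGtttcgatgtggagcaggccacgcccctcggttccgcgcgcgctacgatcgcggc
Idi1: tgcctccagctgATTGGcgagcccgggca
Cyp51: cgctgtccgccaCCAATctggtcctgaga

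The Hmgcs1 and Fasn stretches hold the 150 bases before the transcript start of the RefSeq window. For Fasn that start lies within the gene's span in the count table, chr11:120805958-120825166, so the gene has another start further upstream, and the run of 8 bases in capitals in Fasn is made of 2 matches that overlap on opposite strands. A promoter window, 250 bases before to 50 after a start, was matched for 22 of the 29 genes, without Fdps, Fdft1, Sqle, Stard4, Scd1, Scd2 and Fads1. CCAAT stood on either strand in 18 of these 22 (81.8%), against 42.4% of the 12214 tested genes with a window and 37.4% of all 32851 windows. The genes without it were Acat2, Acaca, Elovl6 and Fads2. By edgeR the 4 genes shown and Srebf2, which have the match, were lower in KO7 than in both WT leukemias. Elovl6, Acaca and Fads2, which lack it, and Stard4, which has no window, were lower as well. Higher than in both were Ebp, Insig1, Srebf1 and Nsdhl, which have it. Whether the match goes with the direction of change was not tested. TCACNCCAC was found in 1 of 22 (4.55%), that of Hmgcs1, against 1.5% of tested genes. A longer form of this element, which contains a match to the shorter one, was found in 0 of 22 against 0.0573%. CACGTG, the E-box, was found in 4 of 22 (18.2%), those of Hsd17b7, Insig1, Dhcr7 and Sc5d, against 11.0%. A match in these letters is a description of the window and not evidence of binding.

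Bcat1 was read first as a check of the labels. Its level was 17.8 ± 0.955 CPM (counts relative to TMM-scaled library size, mean ± SD, n = 3 throughout) in WT0 with PBS and 35.2 ± 0.416 in WT6, against 2.09 ± 0.596 in KO7 and 6.95 ± 0.845 in KO3, with 26 to 47 counts per library in KO7 and 132 to 170 in KO3. Both knock-outs were below both WT leukemias, but transcript remained: KO3 was 2.55-fold below WT0 with PBS and 3.33-fold above KO7, and the labels do not give the deleted part of the gene, so KO3 cannot be taken as free of Bcat1 transcript. In WT0 with ERG-245 mean Bcat1 was 13.3 CPM, lower than with PBS and without overlap (log2 -0.42, edgeR adjusted p = 4.34e-06). The T cell markers were all detected in every group and summed to 0.48% to 0.867% of counts. The summed share of erythroid markers was 5.28% in KO7, 4.42% and 3.74% in WT0 given ERG-245 and PBS, and 1.16% and 1.07% in WT6 and KO3. That of macrophage markers was 0.37% in KO7, 0.21% in WT6, 0.161% in KO3, and 0.156% and 0.12% in WT0 given ERG-245 and PBS. In such bulk samples, fewer cells of a type and less RNA per cell cannot be told apart. Of the markers of lipid-making tissues, 1 of 7 for adipocytes (Lep) had 0 counts in every group, and the mean summed share was highest in KO7 at 0.00302%, followed by WT6 at 0.00293%, KO3 at 0.00237%, and WT0 at 0.00206% after ERG-245 and 0.000691% after PBS. The 5 hepatocyte markers, with Ttr and Fgb at 0 in every group, had a mean summed share of at most 2.12e-05%. Total counts were 17441292 to 28902573 per library, and edgeR's biological coefficient of variation was 2.18% within groups of libraries but 41.9% when leukemias served as the replicates of a genotype.

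The genes were expressed in every library and differed little among the groups. The ratio of the highest to the lowest group mean was 1.16 to 3.53 with a median of 1.45, and 1 of the 29 genes (3.45%), Elovl6, reached 2-fold. Over the 10993 genes that averaged 5 CPM or more the median ratio was 1.5, and 24.3% reached 2-fold. The group with the lowest mean was KO7 for 12 of the 29 genes, WT0 with PBS for 8, WT6 for 5, WT0 with ERG-245 for 3 and KO3 for 1, where of all tested genes 22.4% were lowest in KO7 and 17.2% in KO3. The highest means were spread over the groups, with 5 to 7 genes in each. The coefficient of variation between the 3 libraries of a group was 0.31% to 23.6% with a median of 4.28% over the 145 pairs of gene and group.

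**Figure D1:**
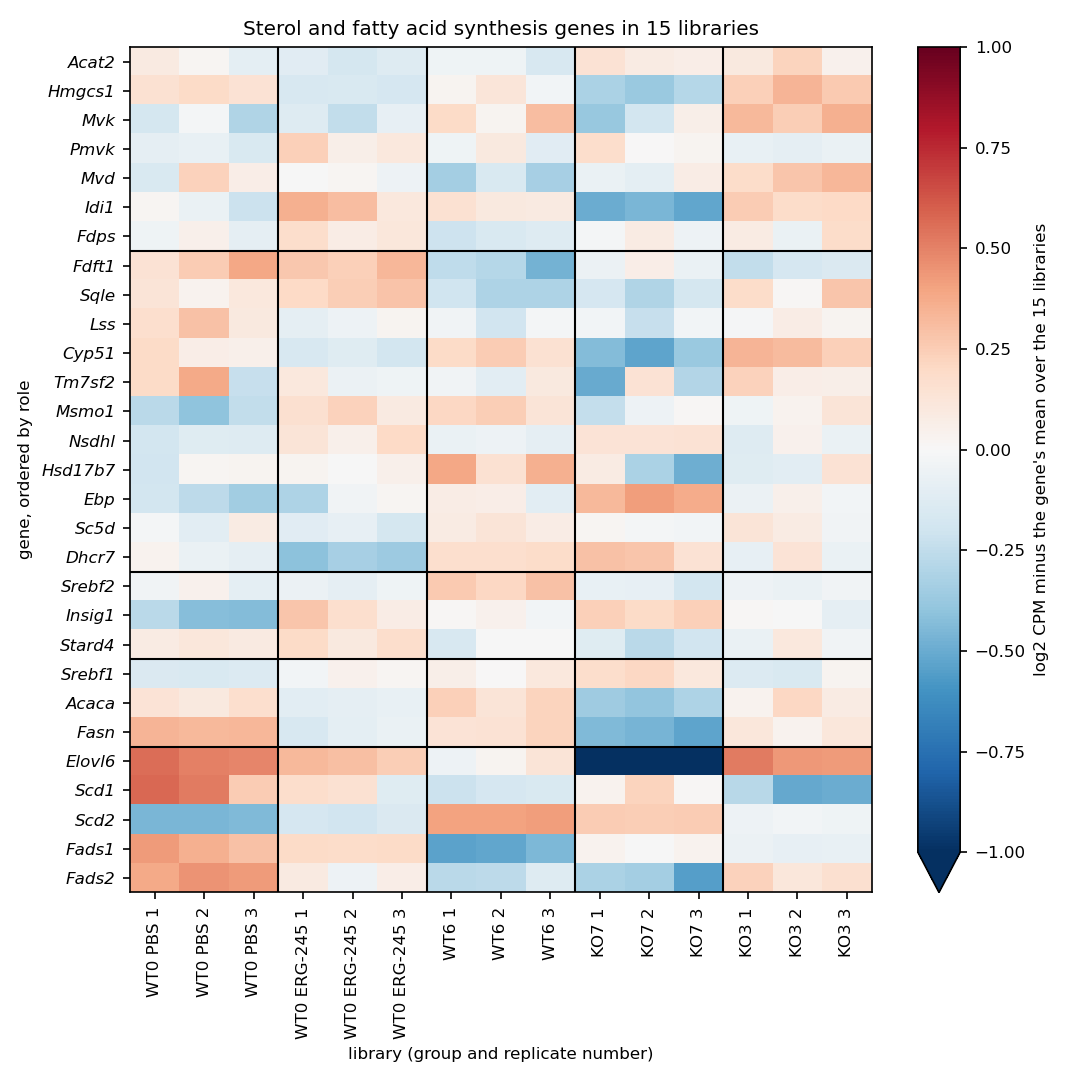
Each row is 1 of the 29 genes in order of role and each column 1 of the 15 libraries, and the colour gives the log2 CPM minus the gene's mean over all libraries. Libraries of a group look alike, and the darkest low values are those of Elovl6 in the 3 KO7 libraries.

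Levels of different genes were compared as CPM per kilobase of merged exons, averaged over the groups. Scd2, a desaturase that makes monounsaturated fatty acids, stood highest at 74.9 CPM per kilobase, and its relative Scd1 stood at 1.31. Srebf2 followed at 31.8 and Fdps, which makes farnesyl diphosphate, at 28.8 CPM per kilobase. Fasn, the fatty acid synthase, was at 18.3 and Srebf1 at 15.9 CPM per kilobase, whereas Acaca, the acetyl-CoA carboxylase that makes malonyl-CoA, was at 5.03. The lowest was Hsd17b7, a ketoreductase of sterol synthesis, at 1.13 CPM per kilobase. Merged exons include those of rarer transcripts, so that a gene with long models, such as Fdft1 at 3.17 CPM per kilobase, is understated. Scd1 and Scd2 are similar genes next to each other on chromosome 19, at chr19:44394450-44407709 and chr19:44293676-44306864, and fragments that fit both may be missing from or misassigned between them.

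**Figure D2:**
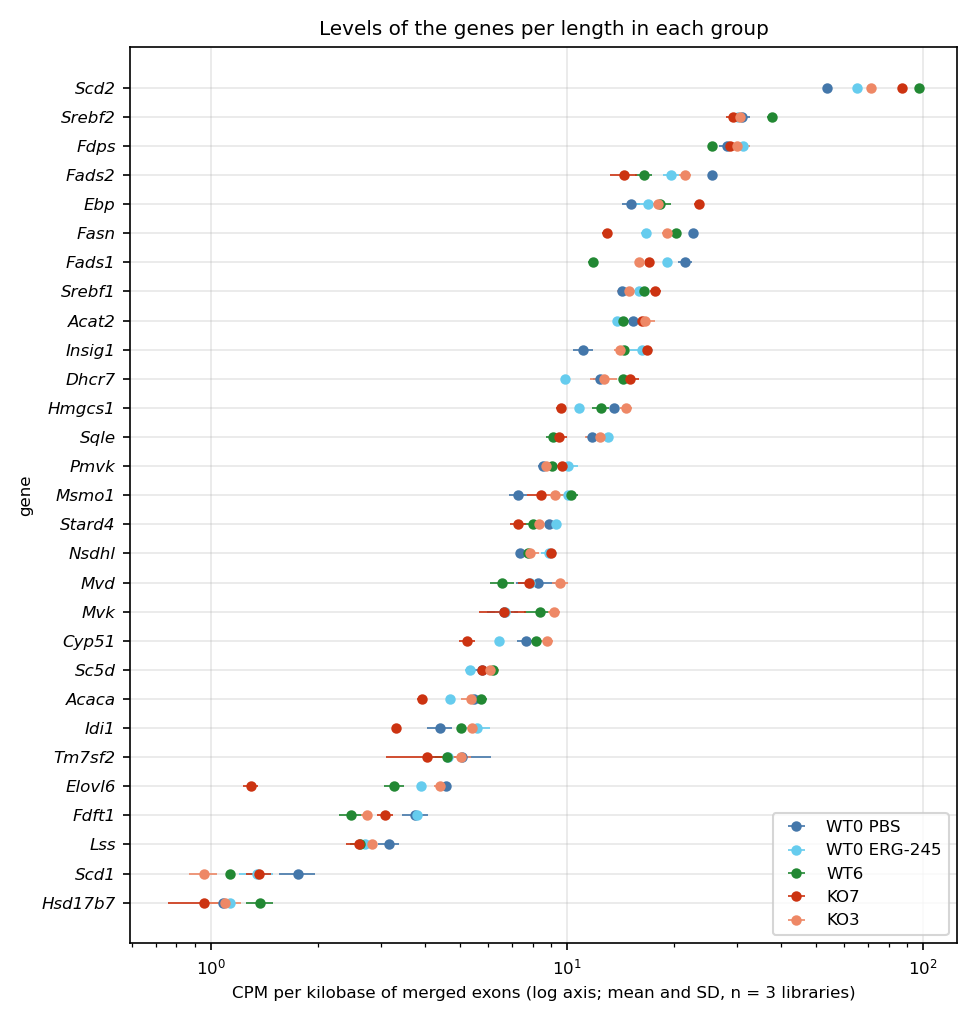
Points give the mean CPM per kilobase of merged exons of each gene in each of the 5 groups on a log axis, with bars for the SD of 3 libraries. Scd2 lies at the top in all groups, and the group means of Elovl6 run from 1.29 in KO7 to 4.56 in WT0 with PBS.

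ERG-245 was compared with PBS in WT0 to ask what inhibition of BCAT1 does to expression. With the inhibitor the carbon-chain genes Fasn, Acaca, Elovl6, Scd1, Fads1 and Fads2 were lower, Scd2 was higher, and the sterol genes were split. Of the 29 genes 10 rose and 11 fell at an edgeR adjusted p under 0.05, which is 72.4% of them where 65.8% of all tested genes were called (33.0% higher and 32.8% lower), so the share is near the background. At 1.5-fold or more 0 of the 29 were called, against 22.6% of all tested genes (11.1% higher and 11.5% lower). Their median log2 fold change was -0.04 and that of all genes -0.000534. The calls of 16 of the 21 held in every alternative analysis. By edgeR 12 of 14 erythroid, 8 of 12 macrophage, 7 of 9 immunoglobulin and plasma cell and 7 of 8 stromal and endothelial markers were higher with ERG-245. The summed stromal and endothelial share was 0.0514% with PBS and 0.0398% with ERG-245. Lower were 9 of 9 B cell, 7 of 7 platelet, 7 of 8 neutrophil and 8 of 11 T cell markers, the neutrophil share being 0.00689% with PBS and 0.000342% with ERG-245, and their part in the result was not tested.

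Among sterol genes in this comparison, Hmgcs1, which makes HMG-CoA at the entry of the mevalonate pathway, had 49.3, 50.8 and 49.1 CPM with PBS and 39.7, 39.9 and 39.5 CPM with ERG-245. All 3 treated libraries lay below all 3 controls, and Hmgcs1 fell by 0.33 ± 0.047 on the log2 scale (SE; edgeR adjusted p = 6.72e-09). Insig1, the sterol-regulated retention factor, moved the other way, from 31.5, 28.3 and 28.2 CPM to 46.2, 42.6 and 39.9 CPM, without overlap. Its log2 fold change was 0.54 ± 0.054 (edgeR adjusted p = 1.15e-14), the highest of the 29 genes. Msmo1, a sterol C4-methyl oxidase, rose from 13.4 ± 0.778 to 18.6 ± 0.902 CPM (log2 0.47, edgeR adjusted p = 1.39e-07). Dhcr7, which catalyses the last reduction to cholesterol, fell to 34.4 ± 0.934 CPM, from 43.2 ± 2.02 (log2 -0.33, edgeR adjusted p = 7.28e-08). The regulator Srebf2 itself had 174 ± 8.59 CPM with PBS and 170 ± 2.61 CPM with ERG-245, and the libraries overlapped.

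On the fatty acid side, Fasn had 237, 235 and 236 CPM with PBS and 168, 175 and 180 CPM with ERG-245. The groups stood well apart, and Fasn fell by 0.44 ± 0.028 on the log2 scale (edgeR adjusted p = 1.37e-23), the lowest log2 fold change of the 29. Fads2, a desaturase of polyunsaturated fatty acids, fell from 74.1 ± 1.72 to 56.9 ± 2.99 CPM (log2 -0.38, edgeR adjusted p = 8.17e-12). Scd2 had 291, 291 and 294 CPM with PBS and 355, 350 and 361 CPM with ERG-245, so that all treated libraries were higher (log2 0.28, edgeR adjusted p = 1.5e-18). Calls of 5 genes depended on the analysis. Without WT0 PBS replicate 1 the adjusted p of Acat2 was 0.144, and without WT0 ERG-245 replicate 2 it was 0.0712. That of Lss was 0.0516 without WT0 PBS replicate 2. Fdps was lost without WT0 PBS replicate 3 or WT0 ERG-245 replicate 1 (0.0679 and 0.0633), and Sqle without WT0 PBS replicate 2 or WT0 ERG-245 replicate 3 (0.0893 and 0.0634). Ebp was lost without any of 4 of the 6 libraries compared, at 0.0539 and 0.124 without WT0 PBS replicates 2 and 3 and at 0.121 and 0.252 without WT0 ERG-245 replicates 2 and 3.

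KO7 and KO3 were each compared with both WT leukemias, WT6 and WT0 with PBS, to ask how expression differs in the leukemias labelled BCAT1 knock-out. Comparisons with the same WT group share its 3 libraries, so their values are given side by side. The genes did not move as a group in either knock-out. Elovl6, Fasn, Cyp51, Idi1, Acaca and Hmgcs1 were lower in KO7 than in both WT leukemias. So were Fads2 and Stard4, whose calls against WT6 were lost in some alternatives, and Srebf2, whose call against WT0 with PBS was. Insig1, Srebf1, Ebp and Nsdhl were higher in KO7 than in either WT leukemia.

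In KO7 against WT6, 10 of the 29 genes rose and 13 fell by edgeR (79.3% called, where the share of all tested genes was 68.9%, with 32.2% higher and 36.7% lower). At 1.5-fold or more 4 fell (13.8%) and 0 rose, and of all tested genes 28.8% were called at that size, 15.4% higher and 13.3% lower. The 4 were Elovl6, Cyp51, Fasn and Idi1. The median log2 fold change was -0.10 for the 29 genes and -0.03 for all genes. In KO7 against WT0 with PBS, 8 rose and 15 fell (79.3%, beside 69.4% of all tested genes, with 34.5% higher and 34.9% lower), and the median was -0.16 where that of all genes was -0.00174. At 1.5-fold or more 3 rose, Scd2, Ebp and Insig1, and 3 fell, Elovl6, Fasn and Fads2, beside 29.0% of all tested genes (15.1% higher and 13.9% lower). Calls held in every alternative for 19 of 23 genes in each of these comparisons. Against WT6, the call of Mvd was lost without KO7 replicate 3 (edgeR adjusted p = 0.0616). That of Stard4 was lost without WT6 replicate 2 or 3 or KO7 replicate 2 (0.108, 0.0783 and 0.132), and that of Scd1 without WT6 replicate 1 or 2 or KO7 replicate 2 (0.0939, 0.0565 and 0.174). Against WT0 with PBS, Pmvk was lost without WT0 PBS replicate 3 or KO7 replicate 1 (0.0826 and 0.201), and Tm7sf2 without WT0 PBS replicate 2 or KO7 replicate 1 (0.173 and 0.166).

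KO3 gave fewer calls. Against WT6, 9 of the 29 genes rose and 7 fell by edgeR (55.2%, where 59.7% of all tested genes were called, 27.7% higher and 32.0% lower). At 1.5-fold or more 0 were called, against 20.5% of all tested genes (7.44% higher and 13.0% lower). The median log2 fold change was 0.06, and -0.02 for all genes. Against WT0 with PBS, 9 rose and 6 fell (51.7%, beside 66.6% of all tested genes, with 34.1% higher and 32.4% lower), with a median of 0.06 and of 0.00328 for all genes. Scd1 alone fell by 1.5-fold or more, beside 23.2% of all tested genes (8.71% higher and 14.4% lower). None of the 7 mevalonate genes was called lower in KO3 against WT6 or WT0 with PBS, and 4 of 7 were called higher in each. The genes differed, being Acat2, Hmgcs1, Mvd and Fdps against WT6 and Hmgcs1, Mvk, Mvd and Idi1 against WT0 with PBS. Only Hmgcs1 and Mvd were in both sets, and their calls against WT0 with PBS did not hold in every alternative. Calls held in every alternative for 12 of 16 genes against WT6 and for 12 of 15 against WT0 with PBS. Against WT6, Hsd17b7 was lost without WT6 replicate 1 or KO3 replicate 1 (edgeR adjusted p = 0.0606 and 0.0557), and Fdft1 without WT6 replicate 3 or KO3 replicate 2 or 3 (0.25, 0.0777 and 0.111). Acaca was lost without WT6 replicate 1 or 3 or KO3 replicate 1 or 3 (0.203, 0.107, 0.313 and 0.146). Against WT0 with PBS, Hmgcs1 was lost without KO3 replicate 2 (0.104) and Mvd without WT0 PBS replicate 1 or KO3 replicate 3 (0.243 and 0.0653), which are 2 of the 4 mevalonate genes. Lss was lost without WT0 PBS replicate 2 or KO3 replicate 1 or 3 (0.254, 0.115 and 0.074).

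Against WT0 with PBS, 14 of 14 erythroid markers were lower in KO3 and 8 of 8 neutrophil, 8 of 11 T cell, 7 of 9 immunoglobulin and plasma cell and 7 of 12 macrophage markers higher. Lower there were 2 of the T cell, 2 of the immunoglobulin and plasma cell and 4 of the macrophage markers. Against WT6, 7 of 14 erythroid markers were higher in KO3 and 3 lower, with a summed share of 1.07% in KO3 and 1.16% in WT6. Of 11 T cell markers 7 were higher and 3 lower. Lower were 8 of 9 immunoglobulin and plasma cell, 7 of 9 B cell, 7 of 8 neutrophil and 7 of 12 macrophage markers. Of these lists 1 immunoglobulin and plasma cell marker and 2 macrophage markers were higher. Their part in the KO3 values was not tested.

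**Figure D3:**
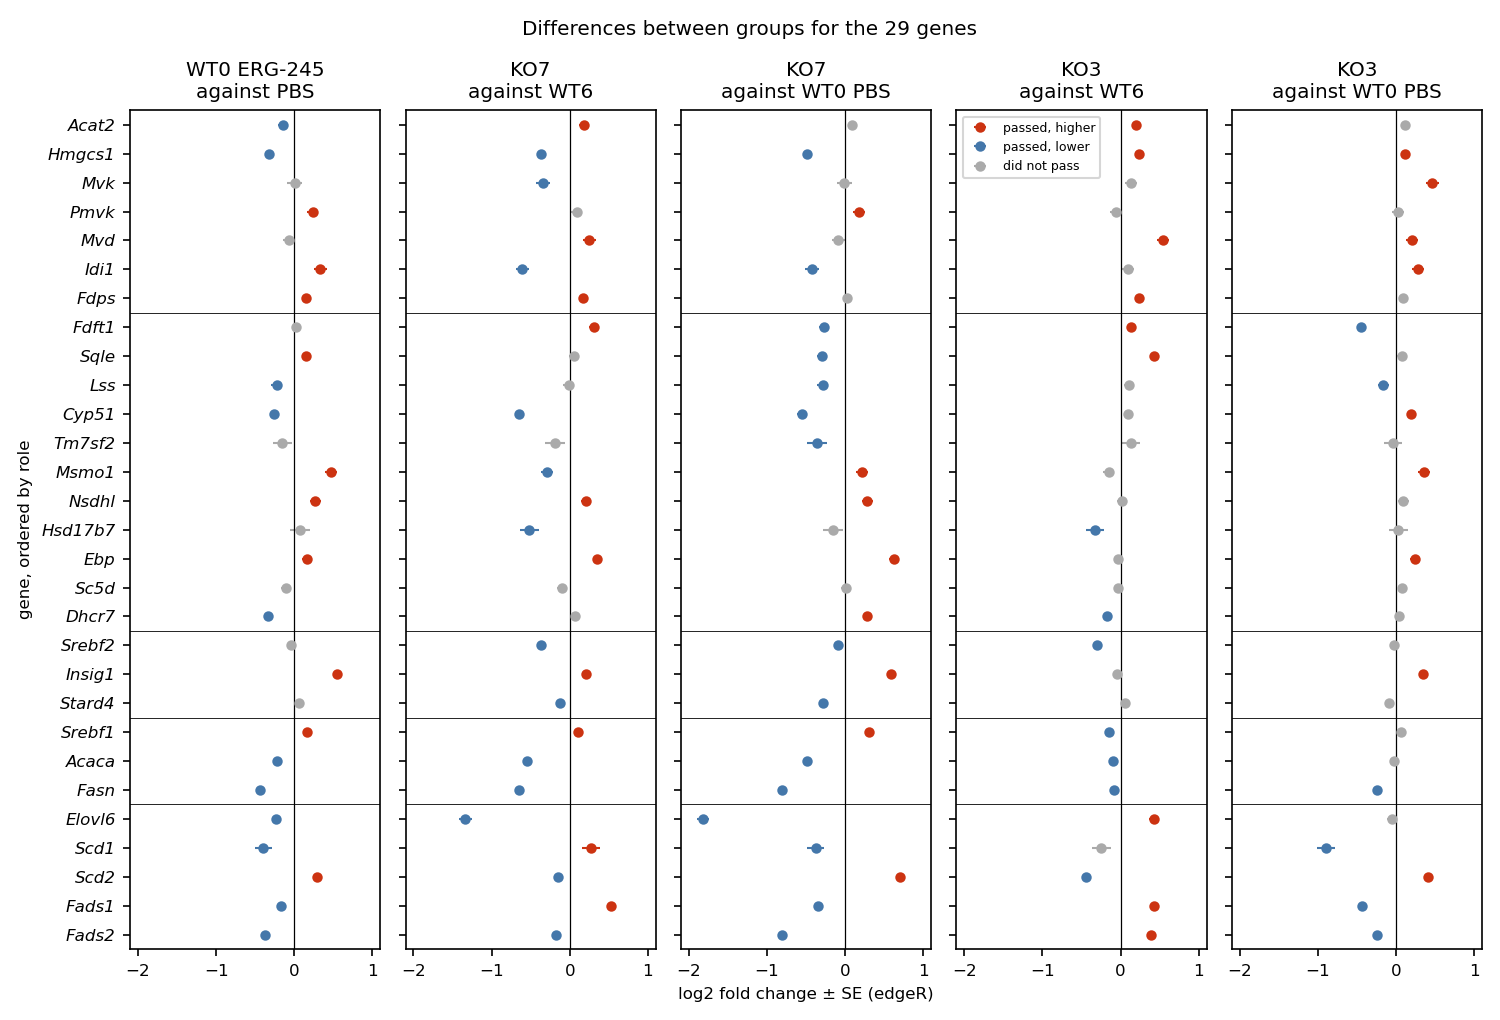
Each panel gives the edgeR log2 fold change of the 29 genes in 1 comparison with bars for the SE, red where the gene passed and was higher, blue where it passed and was lower, and grey where it did not pass. Elovl6 stands out at -1.34 in KO7 against WT6 and -1.82 in KO7 against WT0 with PBS, and most other points lie within 0.6 of 0.

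In the mevalonate pathway Hmgcs1 (gene 208715, chr13:119690351-119708260) had 35.5, 34.2 and 36.3 CPM in KO7 and 52.4, 56.1 and 53.1 CPM in KO3, beside 45.2, 48.3 and 43.5 CPM in WT6. KO7 lay below and KO3 above WT6 without overlap, with log2 fold changes of -0.37 ± 0.048 (edgeR adjusted p = 2e-10) and 0.24 ± 0.043 (edgeR adjusted p = 1.99e-06). Idi1, which isomerises isopentenyl diphosphate, had 9.45, 9.71 and 9.32 CPM in KO7, 15.9, 15.1 and 15.3 CPM in KO3, 14.8, 14.3 and 14.2 CPM in WT6 and 13.6, 12.7 and 11.5 CPM in WT0 with PBS. KO7 was the lowest group, at a log2 fold change of -0.61 against WT6 (edgeR adjusted p = 1.41e-09) and -0.42 against WT0 with PBS (edgeR adjusted p = 2.85e-05). Mvd, the mevalonate diphosphate decarboxylase, was highest in KO3 at 17.8 ± 0.949 CPM and lowest in WT6 at 12.3 ± 0.927 CPM (log2 0.54, edgeR adjusted p = 6.14e-09). Mvk, the mevalonate kinase, had 16.4 ± 0.638 CPM in KO3, 14.9 ± 1.47 in WT6, and 11.8 ± 1.78 and 11.8 ± 1.17 in KO7 and WT0 with PBS. Acat2, which joins 2 acetyl-CoA, Pmvk, the phosphomevalonate kinase, and Fdps kept their group means within 1.18-fold to 1.22-fold of each other.

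Among the 11 genes from squalene to cholesterol, Cyp51 (gene 13121, chr5:4080674-4104697), the lanosterol demethylase, had the lowest log2 fold change in KO7 against WT6. Its libraries had 23.0, 21.6 and 24.0 CPM in KO7, 39.4, 38.6 and 36.6 CPM in KO3, 35.5, 37.0 and 34.5 CPM in WT6 and 35.6, 32.5 and 32.2 CPM in WT0 with PBS. KO7 lay below all other groups, at -0.64 ± 0.057 against WT6 (edgeR adjusted p = 5.04e-17) and -0.55 against WT0 with PBS (edgeR adjusted p = 1.96e-13). Ebp, the sterol isomerase, did the opposite. It had 39.6, 42.3 and 40.8 CPM in KO7 and between 24.8 and 33.2 CPM in the libraries of the other 4 groups, and rose by 0.35 against WT6 (edgeR adjusted p = 7.22e-08) and 0.63 against WT0 with PBS (edgeR adjusted p = 2.51e-15) on the log2 scale.

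Fdft1, the squalene synthase, and Sqle, the squalene epoxidase, did not separate the genotypes. Fdft1 was at 38.8 ± 3.3 CPM in WT0 with PBS, 25.6 ± 2.03 in WT6, 31.9 ± 1.7 in KO7 and 28.3 ± 1.03 in KO3, so that both knock-outs lay between the WT leukemias. Sqle was at 33.9 ± 3.13 CPM in KO3 and 32.3 ± 1.15 in WT0 with PBS, which overlapped, and at 26.1 ± 1.37 in KO7 and 25.1 ± 1.11 in WT6, which also overlapped. Msmo1 was higher in KO7 than in WT0 with PBS but lower than in WT6, at 15.6 ± 1.39 CPM against 13.4 ± 0.778 and 19.0 ± 0.763. The first difference did not pass without WT0 PBS replicate 2 or KO7 replicate 3 (edgeR adjusted p = 0.0913 and 0.101). Hsd17b7 had its highest mean in WT6, at 7.68 ± 0.664 CPM, and 5.34 ± 1.12 in KO7, where it fell by 0.52 against WT6 (edgeR adjusted p = 9.71e-05). Sc5d, the lathosterol desaturase, passed in none of the 7 comparisons between groups by edgeR and had group means of 26.3 to 30.6 CPM. Lss, the lanosterol synthase, Tm7sf2 and Nsdhl, a reductase and a decarboxylating dehydrogenase of later steps, had group means within 1.26-fold of each other, and Dhcr7 within 1.53-fold.

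Of the regulators, Srebf2 had 213, 204 and 218 CPM in WT6, 169, 168 and 156 CPM in KO7, 172, 169 and 173 CPM in KO3 and 173, 183 and 166 CPM in WT0 with PBS. WT6 stood above the other groups, and both knock-outs were lower than WT6 (log2 -0.36 and -0.30, edgeR adjusted p = 1.12e-18 and 2.3e-15). Against WT0 with PBS the values of Srebf2 were -0.09 in KO7, an adjusted p of 0.0106 by edgeR that was 0.227 without WT0 PBS replicate 2 and 0.172 without KO7 replicate 3, and -0.03 in KO3, which did not pass. Insig1 was at 44.3 ± 0.84 CPM in KO7, 37.3 ± 1.44 in KO3, 38.3 ± 0.933 in WT6 and 29.3 ± 1.88 in WT0 with PBS. The log2 fold change of Insig1 was 0.59 in KO7 and 0.34 in KO3 against WT0 with PBS (edgeR adjusted p = 2.94e-16 and 6.35e-08). Against WT6 it was 0.21 in KO7 (edgeR adjusted p = 0.000167) and -0.04 in KO3, which did not pass. Stard4, a carrier of cholesterol between membranes, was at 39.6 ± 2.02 CPM in KO7, its lowest group, and 48.2 ± 0.568 in WT0 with PBS.

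Fasn (gene 14104, chr11:120805958-120825166) had 138, 136 and 130 CPM in KO7, 204, 192 and 202 CPM in KO3, 206, 208 and 219 CPM in WT6 and 237, 235 and 236 CPM in WT0 with PBS. All 6 knock-out libraries lay below all 6 libraries of WT6 and WT0 with PBS. Fasn was the only one of the 29 genes for which these knock-out and WT libraries did not overlap (3.45%, where 6.68% of all tested genes had no overlap, 3.71% with the knock-outs lower and 2.97% with them higher). The WT0 libraries with ERG-245, left out of this count, had 168, 175 and 180 CPM, below the KO3 libraries and above those of KO7. The size differed between the knock-outs. In KO7 Fasn fell by 0.64 ± 0.029 against WT6 (edgeR adjusted p = 9.77e-33) and by 0.81 against WT0 with PBS (edgeR adjusted p = 1.64e-38) on the log2 scale. In KO3 the values were -0.08 against WT6 (edgeR adjusted p = 0.00931) and -0.24 against WT0 with PBS (edgeR adjusted p = 1.79e-12). The first of these did not pass without WT6 replicate 3 or KO3 replicate 2 (0.121 and 0.148) and had adjusted p from 0.00544 to 0.148 over the alternatives.

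Acaca had 48.2, 46.9 and 49.8 CPM in KO7 and between 63.0 and 72.8 CPM in the KO3, WT6 and WT0 PBS libraries. KO7 was thus apart from these groups, with a log2 fold change of -0.55 against WT6 (edgeR adjusted p = 8.19e-20) and -0.48 against WT0 with PBS (edgeR adjusted p = 2.21e-16). Srebf1 went the other way in KO7, at 111 ± 3.89 CPM beside 103 ± 3.52 in WT6, 93.5 ± 6.5 in KO3 and 89.7 ± 0.493 in WT0 with PBS. Its log2 fold change in KO7 was 0.11 against WT6 (edgeR adjusted p = 0.00501) and 0.31 against WT0 with PBS (edgeR adjusted p = 7.85e-12).

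Elovl6 (gene 170439, chr3:129532386-129638495 of GRCm38), which elongates palmitate to stearate, had 7.29, 7.72 and 8.07 CPM in KO7 and 27.2, 25.6 and 25.5 CPM in KO3. The libraries had 18.3, 19.3 and 20.8 CPM in WT6, 28.0, 26.8 and 26.6 CPM in WT0 with PBS and 23.7, 23.4 and 22.6 CPM with ERG-245. KO7 lay below every other library, and KO3 lay above WT6 and overlapped WT0 with PBS. In KO7 Elovl6 fell by 1.34 ± 0.08 against WT6 (edgeR adjusted p = 2.18e-25) and by 1.82 ± 0.078 against WT0 with PBS (edgeR adjusted p = 5.24e-34) on the log2 scale. In KO3 it rose by 0.43 ± 0.061 against WT6 (edgeR adjusted p = 4.36e-09), and the value against WT0 with PBS was -0.06, which did not pass.

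The desaturases separated the leukemias in different orders. Scd2 had 528, 528 and 533 CPM in WT6, 477, 473 and 475 CPM in KO7, 385, 392 and 388 CPM in KO3 and 291, 291 and 294 CPM in WT0 with PBS, so that each of these groups stood apart from the next and both knock-outs lay between the WT leukemias. Scd1 was highest in WT0 with PBS at 8.49 ± 0.976 CPM and lowest in KO3 at 4.61 ± 0.425 CPM (log2 -0.89, edgeR adjusted p = 2.77e-10). Fads1, the partner of Fads2 in polyunsaturated fatty acid synthesis, was at 76.1 ± 3.53 CPM in WT0 with PBS, 60.2 ± 0.842 in KO7, 56.5 ± 0.424 in KO3 and 41.9 ± 1.32 in WT6. Both knock-outs were above WT6 (log2 0.52 and 0.43, edgeR adjusted p = 9.29e-19 and 5.04e-15) and below WT0 with PBS (log2 -0.34 and -0.43, edgeR adjusted p = 5.94e-12 and 2.51e-16). Fads2 was at 42.1 ± 3.6 CPM in KO7, 47.8 ± 2.6 in WT6, 62.4 ± 2.54 in KO3 and 74.1 ± 1.72 in WT0 with PBS. Its value of -0.18 in KO7 against WT6 did not pass without KO7 replicate 3 (edgeR adjusted p = 0.0614, in a range of 0.000498 to 0.0614 over the alternatives).

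**Figure D4:**
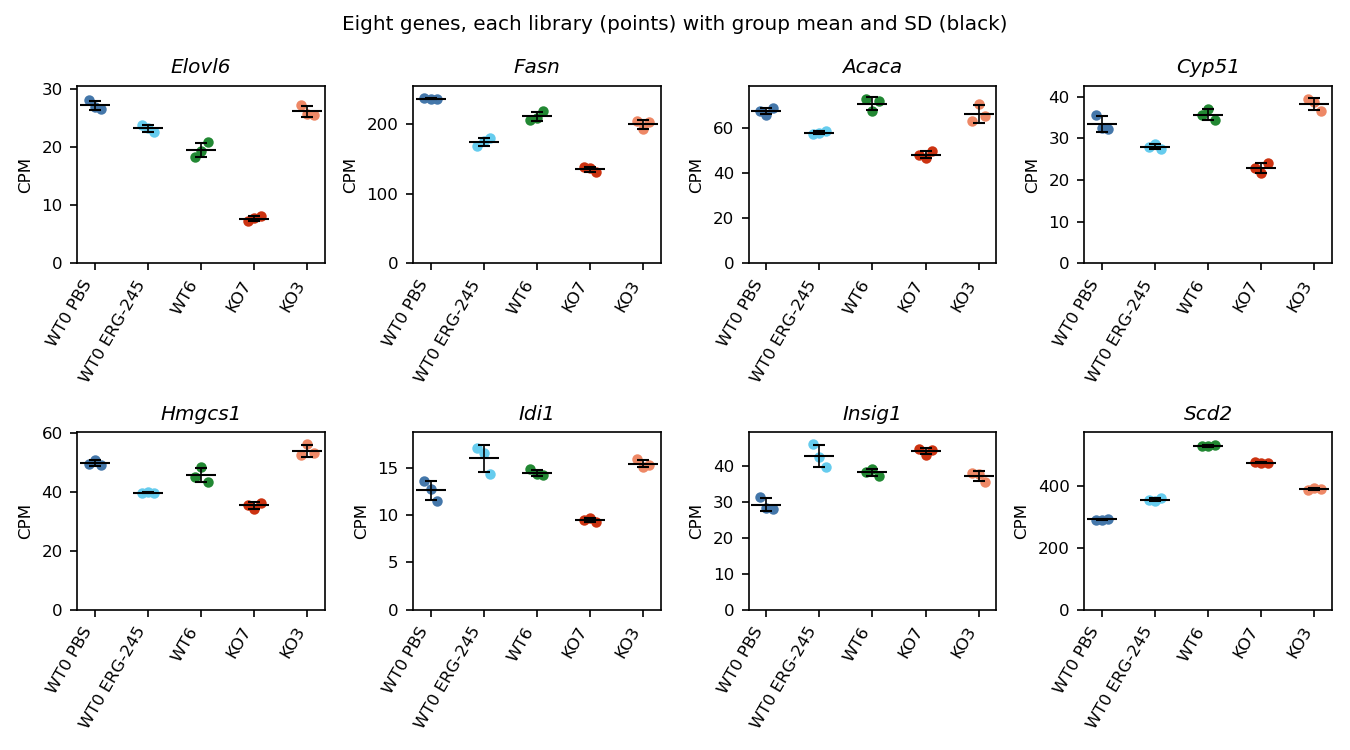
Points are the CPM of single libraries for 8 of the genes, with the mean and SD of 3 libraries per group and axes from 0. KO7 is lowest for Elovl6, Fasn, Acaca, Cyp51, Hmgcs1 and Idi1, whereas Insig1 and Scd2 are lowest in WT0 with PBS.

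Markers of other spleen cells also differed in KO7. Against WT6, 14 of 14 erythroid markers and 11 of 12 macrophage markers rose by edgeR, and the summed shares were 5.2% to 5.35% against 1.1% to 1.26% for erythroid and 0.368% to 0.371% against 0.206% to 0.215% for macrophage markers. None of either list was at 0 in any group. In the same comparison 9 of 9 B cell, 7 of 8 neutrophil, 5 of 7 platelet and 6 of 9 immunoglobulin and plasma cell markers fell. Of these lists 1 neutrophil, 2 platelet and 2 immunoglobulin and plasma cell markers rose. Of 11 T cell markers 3 rose and 8 fell, with summed shares of 0.64% in KO7 and 0.639% in WT6. The erythroid share of WT0 with PBS was 3.67% to 3.79%. Against that group 9 erythroid markers were higher in KO7 and 4 lower, and 10 macrophage markers were higher and 2 lower. Higher there were also 8 of 8 neutrophil and 7 of 9 immunoglobulin and plasma cell markers, with 1 of the latter lower. Lower were 9 of 9 B cell and 6 of 7 platelet markers, with 1 platelet marker higher. Of the T cell markers 5 were higher and 6 lower. The part of the other cells in these differences was not tested.

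KO3 was compared with KO7 to test whether the knock-outs differed from each other, which is also the test of the difference between their comparisons with the same WT group. By edgeR 12 of the 29 genes were higher in KO3 and 9 lower (72.4%, near the 70.7% of all tested genes, with 36.1% higher and 34.6% lower), with a median log2 fold change of 0.12 and of 0.01 for all genes. At 1.5-fold or more 4 were higher in KO3 and 0 lower, beside 32.0% of all tested genes (13.1% higher and 18.9% lower). These were Elovl6 at 1.77 ± 0.078 (edgeR adjusted p = 3.11e-33), Cyp51 at 0.74 ± 0.057 (1.19e-19), Idi1 at 0.70 ± 0.086 (2.34e-11) and Hmgcs1 at 0.61 ± 0.048 (3.22e-19). Of the 7 mevalonate genes 4 were higher in KO3 and 0 lower. Lower in KO3 were Ebp, Dhcr7, Insig1, Srebf1, Scd1 and Scd2, at log2 fold changes of -0.25 to -0.52. Erythroid markers (14 of 14) and macrophage markers (11 of 12, with 1 higher) were lower in KO3 than in KO7. Higher in KO3 were 8 of 9 B cell and 7 of 8 neutrophil markers, with 1 neutrophil marker lower. Of 11 T cell markers 7 were higher and 4 lower. The part of these cells in the result was not tested. The 4 of the 21 calls that did not hold in every alternative were those of Fdft1, Tm7sf2, Nsdhl and Fads1.

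The WT leukemias differed from each other about as much. In WT6 against WT0 with PBS 10 of the 29 genes rose and 12 fell by edgeR (75.9%, near the 72.5% of all tested genes, with 36.8% higher and 35.6% lower), with a median log2 fold change of 0.07 and of 0.00468 for all genes. At 1.5-fold or more 1 was higher, Scd2 at 0.86 ± 0.022 (edgeR adjusted p = 9.44e-49), and 3 were lower, beside 32.6% of all tested genes (15.5% higher and 17.1% lower). The lower ones were Fads1 at -0.87 ± 0.04 (edgeR adjusted p = 2.7e-32), Scd1 at -0.65 ± 0.11 (2.08e-07) and Fads2 at -0.64 ± 0.044 (2.25e-22). 4 of the 5 elongation and desaturation genes fell and 1 rose. All 14 erythroid markers were lower in WT6. Higher there were 8 of 8 neutrophil, 8 of 9 immunoglobulin and plasma cell and 8 of 12 macrophage markers. Of these lists 1 immunoglobulin and plasma cell marker and 2 macrophage markers were lower. Of 11 T cell markers 5 were higher and 5 lower, and of 9 B cell markers 5 were higher and 2 lower. The part of these cells was not tested. 18 of the 22 calls held in every alternative. Lost were Hmgcs1 without WT0 PBS replicate 2 or WT6 replicate 3 (edgeR adjusted p = 0.0555 and 0.0877) and Stard4 without WT6 replicate 1 (0.0945). Idi1 was lost without WT0 PBS replicate 3 or WT6 replicate 1 (0.137 and 0.0736), and Fdps without WT0 PBS replicate 2 or WT6 replicate 1 (0.121 and 0.0678).

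With the leukemia as the replicate, counts were summed per leukemia and KO7 and KO3 were compared with WT6 and WT0 with PBS. None of the 29 genes passed by edgeR, and 0 of 17226 genes did (percent called 0), while 226 genes had an unadjusted p under 0.05 and DESeq2 called 19 genes higher and 24 lower, 0 of the 29 among them. The smallest unadjusted p of the 29 was 0.18, that of Fasn, whose log2 fold change was -0.40 ± 0.257. Elovl6 had -0.45 ± 0.615 and Ebp 0.32 ± 0.253. The leukemia left out moved each of these: without KO7 the values were -0.14 for Fasn, 0.19 for Elovl6 and 0.12 for Ebp, and without KO3 they were -0.72, -1.59 and 0.49. Without WT0 with PBS they were -0.31, -0.17 and 0.20, and without WT6 -0.48, -0.67 and 0.46. The median of the 29 genes was -0.0028 and that of all genes 0.00196. The size of difference that 2 leukemias against 2 can detect was not determined.

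Of 17 other genes of sterol synthesis and its control, 4 were higher and 8 lower in KO7 than in WT6 by edgeR, and 2 higher and 7 lower than in WT0 with PBS. The KO3 counts were 7 higher and 6 lower against WT6 and 6 higher and 5 lower against WT0 with PBS, and the ERG-245 counts 1 higher and 6 lower. Of all tested genes 68.9%, 69.4%, 59.7%, 66.6% and 65.8% were called in these 5 comparisons in turn, so the knock-out counts cannot be read as particular to these genes. In the same order 32.2%, 34.5%, 27.7%, 34.1% and 33.0% of all tested genes were higher, and 36.7%, 34.9%, 32.0%, 32.4% and 32.8% lower. Nfya, a subunit of NF-Y, fell by 0.47 with ERG-245 (edgeR adjusted p = 2.29e-21) and by 0.24 in KO3 against WT0 with PBS (edgeR adjusted p = 6.22e-10). Mean Nfya was 113 CPM in KO7, beside 110 in WT6 and 117 in WT0 with PBS. The other subunits, Nfyb and Nfyc, had means of 65.7 and 70.0 CPM in WT0 with PBS and 67.2 and 70.9 with ERG-245. In KO3 their means were 63.3 and 63.5 CPM.

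Of 17 genes of LXR signalling and sterol handling, 12 were higher and 2 lower in KO7 than in WT0 with PBS by edgeR (median log2 fold change 0.36), and 9 higher and 5 lower than in WT6 (0.08). In KO3 3 were higher and 12 lower than in WT6 (-0.26), and 7 higher and 6 lower than in WT0 with PBS (0.09). Beside these stand 34.5% higher and 34.9% lower of all tested genes in KO7 against WT0 with PBS, 32.2% and 36.7% against WT6, and for KO3 27.7% and 32.0% against WT6 and 34.1% and 32.4% against WT0 with PBS. Abca1, a cholesterol exporter, had 55.3, 58.6 and 53.2 CPM in KO7 and a mean of 19.7 CPM in KO3, beside 38.6, 37.5 and 37.7 CPM in WT6 and 27.9, 27.0 and 25.9 CPM in WT0 with PBS. KO7 was highest and KO3 lowest without overlap, with log2 fold changes of 0.55 and -0.95 against WT6 (edgeR adjusted p = 5.43e-18 and 1.79e-26). Abcg1, another exporter, was highest in KO7 as well, at 105 CPM against 56.1 in WT6 and 58.7 in WT0 with PBS (log2 0.90 and 0.83, edgeR adjusted p = 6.13e-36 and 5.4e-33). Macrophage markers moved in the same direction in the KO7 comparisons, with 11 of 12 higher than in WT6 and 10 of 12 higher than in WT0 with PBS. In KO3 2 of 12 were higher and 7 lower than in WT6. Against WT0 with PBS 7 were higher and 4 lower in KO3, while mean Abca1 was 19.7 CPM in KO3 and 26.9 in WT0 with PBS. The part of macrophages was not tested. Cyp39a1, an oxysterol hydroxylase, had 9.35 to 10.6 CPM in KO7 and 7.04 to 7.52 CPM in KO3, against 0.709 to 1.33 CPM in WT6 and WT0 with PBS. With ERG-245 it had 0.156 to 0.456 CPM, from 3 to 9 counts, and a mean of 0.345 CPM beside 1.14 with PBS. Its log2 fold change was 3.53 in KO7 and 3.07 in KO3 against WT6 (edgeR adjusted p = 6.95e-32 and 4.77e-27).

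Of 27 genes of fatty acid supply and elongation 24 were tested, and by edgeR 9 were higher and 7 lower in KO7 than in WT6, and 9 higher and 5 lower in KO3. Against WT0 with PBS 13 were higher and 5 lower in KO7, 13 higher and 8 lower in KO3, and 10 higher and 5 lower with ERG-245. The shares of all tested genes called were 68.9% and 59.7% against WT6, and 69.4%, 66.6% and 65.8% against WT0 with PBS. In the same order 32.2%, 27.7%, 34.5%, 34.1% and 33.0% were called higher, and 36.7%, 32.0%, 34.9%, 32.4% and 32.8% lower. Fabp5, a fatty acid binding protein, had 55.7, 58.4 and 58.0 CPM in WT0 with PBS and 206, 204 and 203 CPM with ERG-245, which was a rise of 1.83 ± 0.032 on the log2 scale (edgeR adjusted p = 3.27e-59). Fads3, a neighbour of Fads1 and Fads2 in the same desaturase family, rose with ERG-245 from 14.4 to 38.0 CPM (log2 1.41, edgeR adjusted p = 1.16e-29), while those 2 fell. Cd36, a fatty acid transporter, had 224, 237 and 229 CPM in KO7 and between 46.6 and 119 CPM in all other libraries. Cd36 and Acsl1, an acyl-CoA synthetase, rose in KO7 against WT6 by 2.08 and 1.81 on the log2 scale (edgeR adjusted p = 1.08e-62 and 1.04e-52). Cd36 is also known as a gene of macrophages, whose markers were higher in KO7. Mean Cd36 was 230 CPM in KO7, 117 for WT0 given PBS, 76.0 after ERG-245, 54.2 in WT6 and 48.9 in KO3. The macrophage shares of these groups were, in turn, 0.37%, 0.12%, 0.156%, 0.21% and 0.161%. Their erythroid shares were 5.28%, 3.74%, 4.42%, 1.16% and 1.07%, and their mean Acsl1 was 101, 82.9, 126, 28.9 and 32.8 CPM. The part of macrophages and of erythroid cells in these values was not tested.

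**Figure D5:**
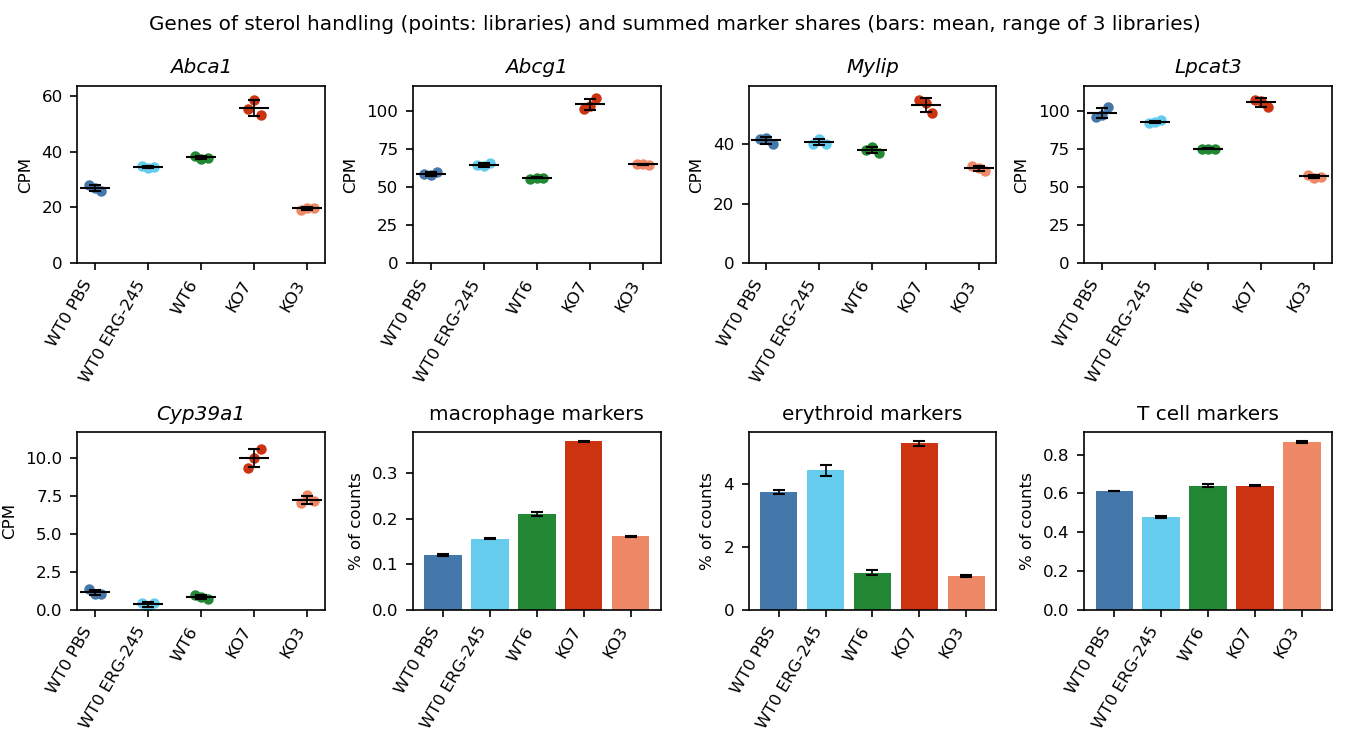
The first 5 panels give the CPM of single libraries for genes of sterol handling with the mean and SD of 3 libraries per group, and the last 3 panels give the summed share of counts of marker lists as bars from 0 with the range of 3 libraries. Abca1, Abcg1, Mylip and Lpcat3 have their highest means in KO7, where the macrophage share of 0.37% and the erythroid share of 5.28% are highest too.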

How the data were processed

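The 15 libraries (5 groups of 3) were deposited by the authors as 1 table of raw fragment counts per gene. Per the file headers, featureCounts 2.0.1 was run on paired fragments with both ends mapped, without chimeric fragments, with a minimum overlap of 25 bases and strand setting 2, on RefSeq exons (GRCm38.p6), and the command holds no setting for multi-mapping fragments. Per the submitters' processing notes, the tools were STAR, Trim Galore, DESeq2 and Subread and the build was mm10. Per the labels, stranded TruSeq mRNA libraries were prepared from RNeasy-purified RNA. The deposited merged-exon length of each gene, in bases (its other unit), was used for levels per kilobase. Of 39827 gene identifiers read, 39743 matched a symbol and 84 did not. The broken lines of Huwe1, Mycbp2 and Neb were not used, and 0 value columns belonged to samples outside the series.

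Tests were run with edgeR 4.0.16 (limma 3.58.1 beneath it) and DESeq2 1.42.0 under R 4.3.3. Genes were filtered with filterByExpr by group, libraries were scaled with TMM, and 7 comparisons between groups were taken from 1 quasi-likelihood fit with 10 residual degrees of freedom over the 15 libraries. The threshold was a p adjusted by Benjamini-Hochberg of under 0.05 over all 15948 genes tested. Sums per leukemia (17226 genes, 2 residual degrees of freedom) were tested the same way. The SE of a log2 fold change was derived as its absolute value divided by the square root of edgeR's F statistic. Sums of marker lists are given as percent of the deposited counts. The procedure was tested on simulated data. CCAAT, the E-box and 2 forms of the sterol regulatory element were searched on both strands of RefSeq promoter windows.

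Alternatives were DESeq2, RLE size factors, scaling without erythroid and immunoglobulin markers, no filter or at least 1 CPM in 3 libraries (2 sums for leukemias), only the 2 groups compared, a replicate block, and leaving out each library or leukemia. The members and lists were chosen with earlier results of these data known. All 29 genes and Bcat1 are described, and of 3 lists of other genes up to 4 per comparison with the smallest adjusted p among those with a mean of at least 1 CPM could be named. Mylip, shown in a figure, and the subunits Nfyb and Nfyc were chosen after their values were seen. Some genes of the sterol list are counted but not reported here singly. All total counts lay between 17441292 and 28902573, and intervals cover the spread between libraries only.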

Additional observations from a re-analysis of the deposited data

Results flagged for a closer look

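The differences of KO7 and of KO3 from the same WT leukemia were not alike for 21 of the 29 genes, as tested by KO3 against KO7 with edgeR. On the log2 scale, genes higher in KO3 were Elovl6 at 1.77, Cyp51 at 0.74, Idi1 at 0.70, Hmgcs1 at 0.61, Fasn at 0.56, Fads2 at 0.56, Mvk at 0.48, Acaca at 0.46, Sqle at 0.38, Tm7sf2 at 0.32, Mvd at 0.29 and Stard4 at 0.19. Genes lower in KO3 were Scd1 at -0.52, Ebp at -0.38, Scd2 at -0.29, Srebf1 at -0.25, Insig1 at -0.25, Dhcr7 at -0.25, Nsdhl at -0.19, Fdft1 at -0.17 and Fads1 at -0.092. Of all tested genes 70.7% differed between these leukemias, so the share of 72.4% is near the background. Without 1 library each, 4 of the calls were lost. Those of Fdft1 went without KO7 replicate 2 or KO3 replicate 1 (adjusted p 0.0927 and 0.0628), of Nsdhl without KO3 replicate 1 (0.0784), and of Tm7sf2 without KO7 replicate 1, KO7 replicate 3 or KO3 replicate 1 (0.252, 0.0747 and 0.0931). The call of Fads1 at -0.092 was lost without any of 9 libraries, with adjusted p from 0.0226 to 0.104 over the alternatives.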

How the results depend on the processing

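Of 232 results for the 29 genes in 8 comparisons, none that passed changed sign in any alternative, and 35 whose value did not pass changed sign, at sizes up to 0.106 between groups and 0.506 across leukemias. DESeq2 ended 8 calls, no filter 5, fits of only the 2 groups compared 3, and RLE size factors, the stricter filter and the other scaling ended none. Across leukemias the count over all genes was 0 higher and 0 lower with edgeR, 19 and 24 with DESeq2, 3 and 5 without the low-count filter, and 0 to 4 and 0 to 3 when 1 leukemia was left out, where the lone leukemia was assumed to vary like the others; the cause was not tested. Leaving out 1 library gave 8 to 10 of the 29 genes higher and 10 to 12 lower for ERG-245, 9 to 10 and 12 to 13 for KO7 against WT6, 8 to 10 and 5 to 8 for KO3 against WT6, 7 to 8 and 13 to 15 for KO7 against WT0 with PBS, 9 to 11 and 5 to 7 for KO3 against WT0 with PBS, 11 to 13 and 6 to 9 for KO3 against KO7, and 9 to 11 and 10 to 14 for WT6 against WT0 with PBS. The replicate numbers did not pair the libraries: deviations of same-numbered libraries correlated at -0.0462 to 0.0321 (30 pairs), and those of other numbers at -0.0372 to 0.0495 (60 pairs). With the replicate block the call of Fdft1 in KO3 against WT6 was lost (log2 0.14, edgeR adjusted p = 0.0544, in a range of 0.0149 to 0.25 over the alternatives), and no other of these genes changed its call. Low counts limit Hsd17b7, Scd1 and Tm7sf2 most.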
